A study of Mus musculus with 6 samples.

Results

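Microglia, the resident macrophages of the brain, keep their identity through a small set of transcription factors and through signalling by transforming growth factor beta (TGF-beta). The 8 genes described here were chosen by symbol from the 28692 genes measured, and all 8 were found. They are Tgfb1, which encodes the ligand TGF-beta 1, Tgfbr1 and Tgfbr2, which encode its receptor chains, Smad3, which encodes a transducer of the signal, and the transcription factor genes Sall1, Maf, Mef2a and Mef2c. Counts were taken from single cells of C57BL/6 mice in a course of experimental autoimmune encephalomyelitis (EAE), a mouse model of multiple sclerosis. Live CD45-positive cells were sorted from mice without the microRNA miR-155 (KO) and from wild-type mice (WT) on days 0, 13 and 21 after induction, and whether the mice of day 0 had received any injection is not given in the sources used here. Brain is the labelled tissue, although spinal cord is named beside it in the protocol. The labels give 5 mice for each of the 6 groups, and each group gave 1 droplet library of RNA 3' ends, so every KO with WT comparison within a day sets 1 library against 1 library. How the KO allele was made, and whether the gene is missing from all cells, is not given in the sources used here, and neither are the age and sex of the mice.

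In the known order of the pathway, latent TGF-beta 1 is held on the surface of microglia and released by an integrin. The active ligand binds TGFBR2, which phosphorylates TGFBR1, and TGFBR1 in turn phosphorylates SMAD2 and SMAD3. These enter the nucleus with SMAD4. Adult microglia need the pathway to keep their homeostatic genes, and SALL1 is a zinc finger factor that is close to specific to microglia among the leukocytes of mice. MEF2A and MEF2C are MADS-box factors that bind microglial enhancers, and MAF is a basic leucine zipper factor of tissue macrophages and of some helper T cells.

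Unique molecular identifiers (UMIs) count captured RNA molecules. In order of day, the KO libraries had 6321841, 18066205 and 15504139 of them and the WT libraries 8566827, 20298806 and 24243660. The median cell had 3019 to 4341 UMIs in KO and 3236 to 4368.5 UMIs in WT libraries. Mir155hg, the host gene of miR-155, had 0, 0 and 1 UMIs in the KO libraries, against 2, 45 and 59 UMIs in the WT libraries, so on day 0 it was too low to check the label. Pairs of libraries shared at most 0.859% of the barcodes of the smaller library. Cells were called microglia when at least 4 of 9 marker genes were detected and no other class's gate was passed, which gave 1205, 469 and 1727 KO cells and 1344, 954 and 556 WT cells. Just outside this gate, with 3 markers, were 50, 66 and 99 KO cells and 75, 92 and 93 WT cells. Just inside it, with 4 markers, were 23, 83 and 48 KO cells and 20, 110 and 142 WT cells. All 9 markers were detected in the gated microglia of every library. The WT library of day 21 stood apart, since 773 of its 1424 cells in the microglial gate also passed the T cell gate and were set aside. In the KO library of that day these were 167 of 2021 cells. On day 13 they were 301 of 904 KO and 364 of 1443 WT cells, and on day 0 24 of 1283 and 43 of 1450. By any second gate, 435 KO and 489 WT cells of day 13 were set aside, against 78 and 106 on day 0. The days thus differ in the share of gated microglia left out. Levels are given as CPM, the usual scaling of a count to the total UMIs of its class in its library. The T cell markers still summed to 288 CPM in the remaining WT microglia of day 21 (8 markers, 7 or 8 detected in each library), to 31.7 CPM in the KO microglia of that day and to 13.2 to 69.4 CPM in the other 4 libraries.

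miR-155 recognises a messenger RNA by pairing of its seed, bases 2 to 8, with the 3' untranslated region (3' UTR). The mature miR-155-5p is shown because the KO lacks it; it lies at chr16:84714143-84714165 on the plus strand of GRCm38.p6 (RefSeq), and capitals mark the seed.
miR-155-5p: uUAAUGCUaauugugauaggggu

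The 3' UTRs of all annotated coding transcripts of the 8 genes were searched for AGCATTA, the complement of the seed, for AGCATTAA, the same with an A after it, and for GCATTAA, the complement of bases 2 to 7 with an A, on the transcribed strand. A match to bases 2 to 8 was found in Mef2a and Smad3, and in 8.77% of the 20911 coding genes with an annotated 3' UTR. The shorter match alone was found in Sall1, Mef2c and Tgfbr2, and any of the matches was found in 13.3% of coding genes. Those shares are over genes whose longest 3' UTR had a median of 956 bases, while that of the 5 genes with a match had 1143 (Sall1) to 6085 bases (Tgfbr2). Among the 10155 genes with a 3' UTR of 1000 bases or more, 15.3% held a match to bases 2 to 8 and 23.1% any of the matches. No match was found in the annotated 3' UTRs of Maf, Tgfb1 and Tgfbr1. Windows of 30 bases around the sites are shown because these are the stretches in which the 8 genes differ with respect to miR-155, with the match in capitals (GRCm38, GENCODE models). The Mef2a site lies at chr7:67234135-67234164 and the Smad3 site at chr9:63647166-63647195, both on the minus strand. The Sall1 sites lie at chr8:89028169-89028198 and chr8:89028055-89028084 on the minus strand, the Mef2c sites at chr13:83666391-83666420 and chr13:83666537-83666566 on the plus strand, and the Tgfbr2 site at chr9:116086193-116086222 on the minus strand. A match describes letters and does not show that the site is used.
Mef2a: ctagaaatatagAGCATTAAcaaaataaaa
Smad3: tcaagatccacaAGCATTAgagtagactgg
Sall1 site 1: aacagagtgcagGCATTAActttggtcttc
Sall1 site 2: ggtcttaatccgGCATTAActtattttcta
Mef2c site 1: gtcagttgtatgGCATTAAtttcctgccac
Mef2c site 2: cgcatatctactGCATTAAatttgtccatt
Tgfbr2: aaatcccagatgGCATTAAgaacacagaag

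The first comparison asked in which classes of the sorted CD45-positive cells the 8 genes were read. Among the classes compared, Sall1 was almost confined to microglia, and Tgfbr1 and Mef2a were highest there. Their margin over plasmacytoid dendritic cells, which only 1 library held in sufficient number, was 2.13-fold and 2.36-fold within that library. Mef2c, Tgfb1, Maf, Tgfbr2 and Smad3 were shared with particular other leukocytes. Counts were summed per library over the cells of a class, in libraries with at least 50 cells of it. Border-associated macrophages, with 0 to 6 gated cells in a library, were too few to compare. A CPM is a share of the class's RNA, and since 3' ends are counted, levels are set side by side only within a gene. Classes were compared within libraries by edgeR's quasi-likelihood test with Benjamini-Hochberg adjustment over all genes tested, and a log2 fold change of 1 is a doubling.

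Sall1 averaged 94.3 ± 29.4 CPM in microglia (SD, n = 6 libraries), with 2065 UMIs in all. Its mean in the other classes was at most 2.88 CPM, in natural killer (NK) cells, where it rests on 2 UMIs. Over the same libraries its level in microglia was 287-fold that in monocytes and macrophages (95% interval 112 to 1053, from 1538 and 4 UMIs) and 52.0-fold that in T cells (30.9 to 95.3, from 2065 and 14 UMIs). The order of the other classes is not resolved, because all of them lie between 0 and 14 UMIs. These intervals cover counting error only, and free RNA from broken microglia can give such single UMIs.

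Tgfbr1 averaged 445 ± 168 CPM in microglia (SD, n = 6 libraries), and its next level was 109 CPM in plasmacytoid dendritic cells, which only 1 library held in sufficient number. Monocytes and macrophages had 31.4 ± 5.72 CPM (SD, n = 5), and NK cells, T cells, conventional dendritic cells and B cells had means of 21.6 to 30.001 CPM. The lowest microglial library, at 232 CPM, lay above every library of every other class. Tgfbr2, the chain that binds the ligand, averaged 105 ± 13.4 CPM in microglia, 49.3 ± 18.6 CPM in B cells and 45.6 ± 5.87 CPM in T cells (SD, n = 6 each). Its lowest microglial library had 83.3 CPM and its highest library of another class 73.2 CPM, in B cells, so the order of microglia before lymphocytes held in all libraries while B and T cells overlapped. Neutrophils had the least Tgfbr2, with 6.74 ± 2.24 CPM (SD, n = 6).

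Tgfb1, the ligand, was shared with monocytes and macrophages. It averaged 328 ± 160 CPM in microglia (SD, n = 6) and 281 ± 74.2 CPM in monocytes and macrophages (SD, n = 5), and these ranges overlapped. B cells had 223 ± 131 CPM, T cells 129 ± 19.7 CPM and neutrophils 47.3 ± 12.5 CPM (SD, n = 6 each). In the KO library of day 13, plasmacytoid dendritic cells had 224 CPM of Tgfb1, against 190 CPM in its microglia. The ratio of microglia over them was 0.848 (0.659 to 1.10). Smad3 was low throughout, with 16.4 ± 5.76 CPM in microglia (SD, n = 6) and 30.3 ± 19.4 CPM in NK cells (SD, n = 4), again with overlapping ranges. T cells had 11.2 ± 4.75 CPM of Smad3, and conventional dendritic cells had 1 UMI in all.

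Among the factors, Maf averaged 176 ± 87.6 CPM in microglia and 60.02 ± 14.9 CPM in T cells (SD, n = 6 each), whose ranges overlapped by the KO microglia of day 13 at 70.7 CPM. NK cells and monocytes and macrophages followed with 28.3 ± 8.62 CPM (SD, n = 4) and 25.1 ± 7.99 CPM (SD, n = 5). Mef2a averaged 244 ± 62.2 CPM in microglia (SD, n = 6), 79.2 ± 15.9 CPM in monocytes and macrophages (SD, n = 5) and 22.7 ± 1.76 CPM in neutrophils (SD, n = 6). Its lowest microglial library, at 176 CPM, lay above the highest of any other class, an NK cell library at 108 CPM. Mef2c averaged 682 ± 197 CPM in microglia and 498 ± 106 CPM in B cells (SD, n = 6 each), 342 CPM in the single plasmacytoid dendritic library, and 15.0 ± 7.17 CPM in T cells (SD, n = 6). The microglia of that plasmacytoid library, the KO library of day 13, had 481 CPM. The ranges of microglia and B cells overlapped for Mef2c, a gene that B cells also use.

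**Figure D1:**
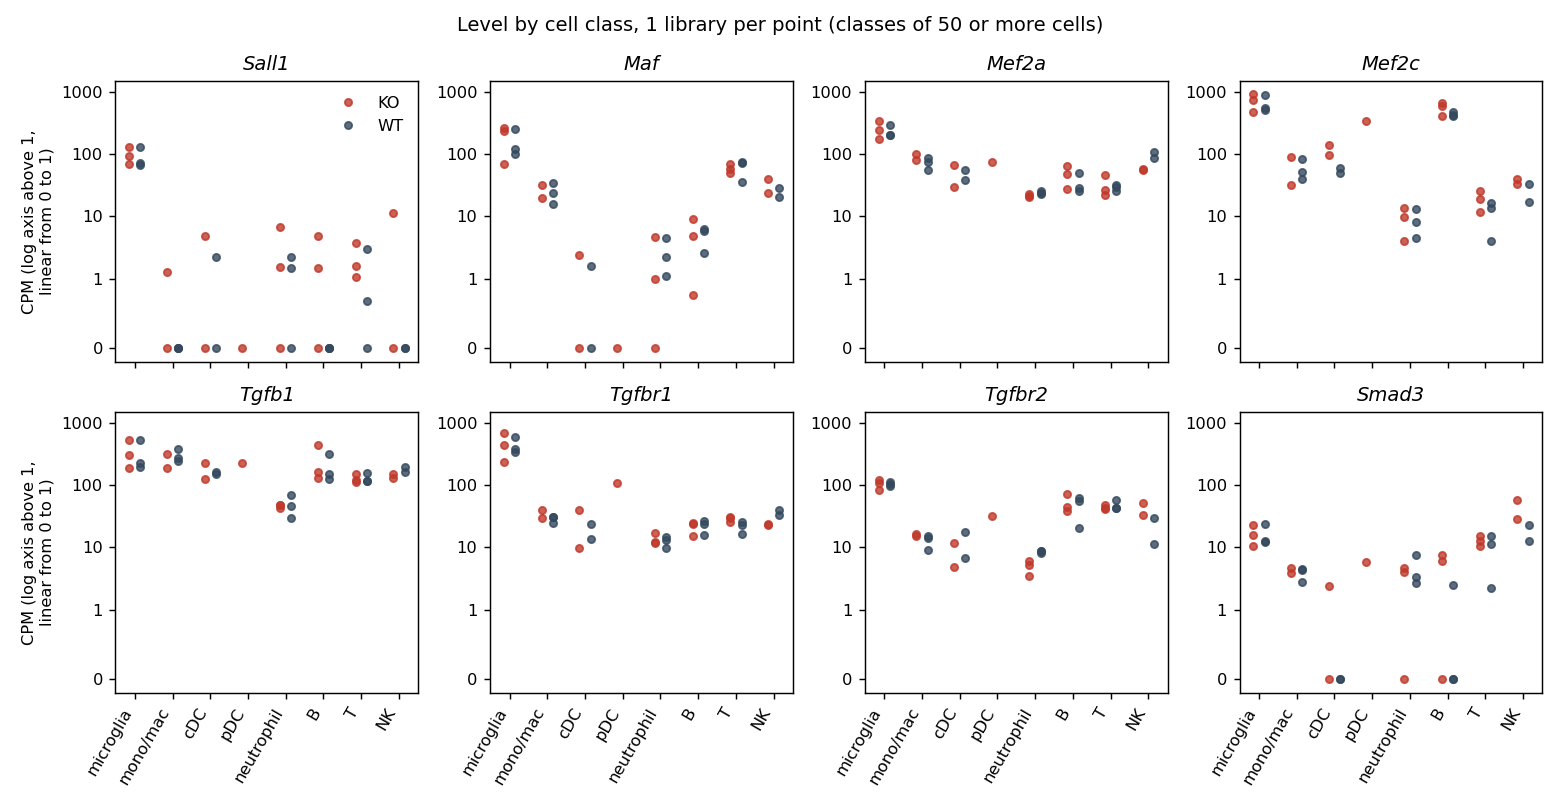
CPM of each gene (log axis above 1, linear from 0 to 1) in 8 cell classes, 1 library per point, KO left of WT, in classes with at least 50 cells; mono/mac stands for monocytes and macrophages, cDC and pDC for conventional and plasmacytoid dendritic cells. Sall1 lies between 67.7 and 131 CPM in microglia and at no more than 11.5 CPM elsewhere, while the Mef2c points of B cells reach 670 CPM.

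A gene that reached the filter on low counts only through microglia was tested because it is high there, so Sall1 in all 5 comparisons and Maf and Smad3 in those with neutrophils, B cells and conventional dendritic cells are left out of the counts here. Of the 7 genes above the filter in the libraries of monocytes and macrophages alone, 6 passed the test as higher in microglia. This stands beside 23.9% of the 9152 genes above it there. Microglial libraries were not checked in that way. Genes that pass only through the other class therefore stay in such shares, here and in the comparisons below, and can lower them. The log2 fold changes of the 6 genes ran from 1.21 ± 0.19 for Mef2a to 3.28 ± 0.21 for Tgfbr1 (SE). Tgfb1 was not called, with a log2 fold change of -0.29 ± 0.15 (SE, adjusted p = 0.13, edgeR). That fit uses the 5 libraries that held both classes and TMM scaling, the trimmed-mean correction of library size, and without TMM the value was -0.04, with a median of all genes of 0.33 rather than 0.07. Without the WT library of day 0, Tgfb1 was called lower in microglia, at -0.42 (adjusted p = 0.0097, edgeR).

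Against T cells, 6 of 7 genes were called higher, beside 26.9% of 8642 genes, and Smad3 was not, at 0.34 ± 0.27 (SE, adjusted p = 0.29, edgeR). Against B cells, 4 of 5 were called, beside 22.3% of 8265 genes, and Mef2c was not, at 0.32 ± 0.14 (SE, adjusted p = 0.077, edgeR). Against neutrophils all 5 were called, beside 25.9% of 6911 genes, and against conventional dendritic cells all 5, beside 20.2% of 6840 genes. Without TMM scaling, the median of all genes in the comparison with neutrophils was 1.52 rather than 0.29. The microglia were chosen by other genes, but genes that go with those markers were bound to be high in them.

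Per cell, after each cell was thinned to 1500 UMIs, Sall1 was seen in 18.9%, 10.7% and 13.9% of KO microglia and 18.1%, 9.96% and 10.6% of WT microglia of days 0, 13 and 21. Before thinning these shares were 34.7%, 20.7% and 24.7% in KO and 34.4%, 21.3% and 16.4% in WT microglia, and median depths were 2719 to 3202 UMIs in KO and 2166 to 3173 UMIs in WT. Sall1 was seen in 0 of 2197 thinned monocytes and macrophages, which allows a share of up to 0.137% with a UMI, at median depths of 3937 to 6203 UMIs. Before thinning, 0.731% of the KO monocytes and macrophages of day 13 had a Sall1 UMI and none of those of the other 4 libraries. Tgfbr1 was seen in 62.9%, 31.1% and 47.0% of thinned KO and 58.0%, 43.3% and 45.0% of thinned WT microglia, and in 3.50% to 5.86% of thinned monocytes and macrophages. The thinning left out 1 KO microglial cell of day 21. Day 0 had the highest share and the highest CPM of both genes in both genotypes, while days 13 and 21 of WT Sall1 came in a different order in the shares and are not ranked.

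For 4 of the genes the 3 most similar genes were taken by Pearson's r of log2(CPM + 1) over 38 sums of a class in a library, which share libraries and classes and are no independent points. Those of Sall1 included Olfml3 (r = 0.923), a marker used to gate microglia, and Ltc4s (r = 0.918). Mef2c was most like Blnk (r = 0.923), which encodes a B cell receptor adaptor, Tcf4 (r = 0.903) and Slc15a4 (r = 0.890). Maf was most like Tpst2 (r = 0.887), Rcbtb2 (r = 0.864) and Ifngr1 (r = 0.859). Tgfbr2 was most like Rhoh (r = 0.911), Maml2 (r = 0.874) and Gm26699 (r = 0.859).

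The second comparison asked how the genes changed in microglia over the course of EAE. On day 13, 7 of the 8 were called lower than on day 0 with edgeR, beside 13.1% of all 10491 genes tested, while Tgfbr2 did not pass. The largest falls were those of Maf, the ligand gene Tgfb1 and the receptor gene Tgfbr1. With DESeq2, an alternative test, 3 of the 8 were called lower. The 3 pairs of days were compared in 1 fit over the 6 libraries with genotype as a covariate, so each day rests on 1 KO and 1 WT library. Both libraries of a day share a title prefix whose meaning is not given, so day and anything that prefix marks cannot be told apart.

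In KO microglia of days 0, 13 and 21, Tgfb1 had 532, 190 and 307 CPM, and in WT microglia 522, 225 and 192 CPM. Both libraries of days 13 and 21 lay below both of day 0. How many of all genes were separated by day in this way was not counted, here or for the genes below. The log2 fold change was -1.10 ± 0.20 for day 13 over day 0 (SE, adjusted p = 0.0023, edgeR) and -0.82 ± 0.20 for day 21 over day 0 (SE, adjusted p = 0.022, edgeR). Tgfbr1 had 684, 232 and 442 CPM in KO microglia, against 596, 341 and 374 CPM in WT microglia, again with no overlap of day 0 with the later days. Its log2 fold change was -0.92 ± 0.20 on day 13 (SE, adjusted p = 0.0063, edgeR), and on day 21 -0.38 ± 0.19, which did not pass (SE, adjusted p = 0.23, edgeR).

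Tgfbr2 had 122, 83.3 and 109 CPM in KO microglia, against 98.6, 104 and 114 CPM in WT microglia. Here the days overlapped: among KO libraries day 13 was the lowest, and among WT libraries day 0. Its log2 fold change was 0.01 ± 0.17 for day 13 over day 0 (SE, adjusted p = 0.98, edgeR). The 2 receptor chains were not tested against each other. Smad3 had 23.0, 10.7 and 15.6 CPM in KO microglia, against 24.1, 12.3 and 12.7 CPM in WT microglia, which rests on 94, 17 and 83 KO UMIs and 110, 38 and 18 WT UMIs. It fell by 0.78 ± 0.21 on the log2 scale on day 13 (SE, adjusted p = 0.022, edgeR).

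**Figure D2:**
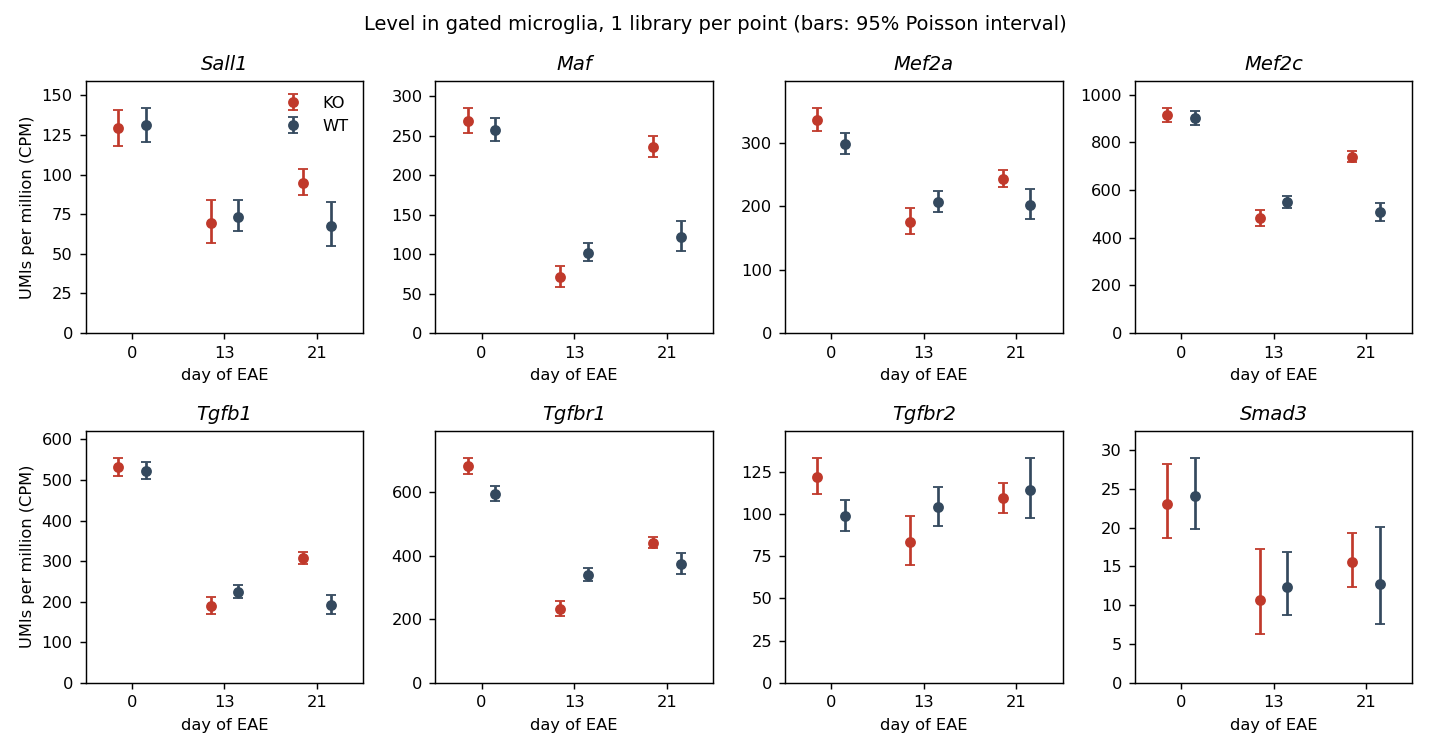
CPM of each gene in gated microglia by day, KO left of WT, 1 library per point, with exact 95% Poisson intervals of the UMI count. For Maf both day 13 points lie below both day 0 points, and on day 21 the KO point, at 236 CPM, lies above the WT point at 122 CPM.

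Of the factors, Maf had 269, 70.7 and 236 CPM in KO microglia, against 258, 102 and 122 CPM in WT microglia. Both day 13 libraries lay under all others, and the KO library of day 21 was closer to day 0 than to day 13. The log2 fold change was -1.34 ± 0.26 for day 13 over day 0 (SE, adjusted p = 0.0035, edgeR). Sall1 had 129, 69.4 and 94.97 CPM in KO microglia, against 131, 73.5 and 67.7 CPM in WT microglia, with day 0 above both later days in both genotypes. It fell by 0.62 ± 0.16 on the log2 scale on day 13 (SE, adjusted p = 0.016, edgeR). Mef2c had 914, 481 and 740 CPM in KO microglia, against 902, 550 and 508 CPM in WT microglia, and Mef2a had 337, 176 and 244 CPM in KO microglia, against 299, 207 and 202 CPM in WT microglia. Neither overlapped between day 0 and the later days. Their log2 fold changes on day 13 were -0.58 ± 0.18 for Mef2c (SE, adjusted p = 0.037) and -0.49 ± 0.16 for Mef2a (SE, adjusted p = 0.043, edgeR).

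Of all 10491 genes tested, 13.1% were called lower and 16.3% higher on day 13 than on day 0, and the median of all genes was -0.02, against -0.70 for the 8. On day 21, 1 of the 8 was called lower than on day 0, Tgfb1, beside 3.91% lower and 8.94% higher among all genes, with medians of -0.34 for the 8 and 0.00 for all genes. Between days 21 and 13 none of the 8 was called by edgeR, beside 0.591% of all genes in either direction. The medians were 0.29 for the 8 and 0.02 for all genes. DESeq2 called 1 of the 8 in that comparison, and 1473 genes had an unadjusted p under 0.05 with edgeR. The largest estimate among the 8 was that of Maf, at 1.04 ± 0.27 (SE, adjusted p = 0.12, edgeR).

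With DESeq2 3 of the 8 were called on day 13, and the calls of Sall1, Mef2a, Mef2c and Smad3 were lost. Over 7 other settings Mef2a was called in 2 and Mef2c in 3. Leaving out the WT library of day 0 ended all 7 calls of day 13, and leaving out the KO library of day 0 or of day 13 left 2 of them. Without the WT library of day 21, which stood apart, day 21 is a KO library alone. The log2 fold changes of day 21 over day 13 were then 1.51 for Maf, 0.69 for Tgfbr1, 0.61 for Tgfb1 and 0.56 for Mef2c. Those of Smad3, Sall1, Mef2a and Tgfbr2 were 0.47, 0.43, 0.34 and 0.17. Each fit with 1 library left out has a lone library for 1 day, which is assumed to vary like the others, and 1 residual degree of freedom.

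**Figure D3:**
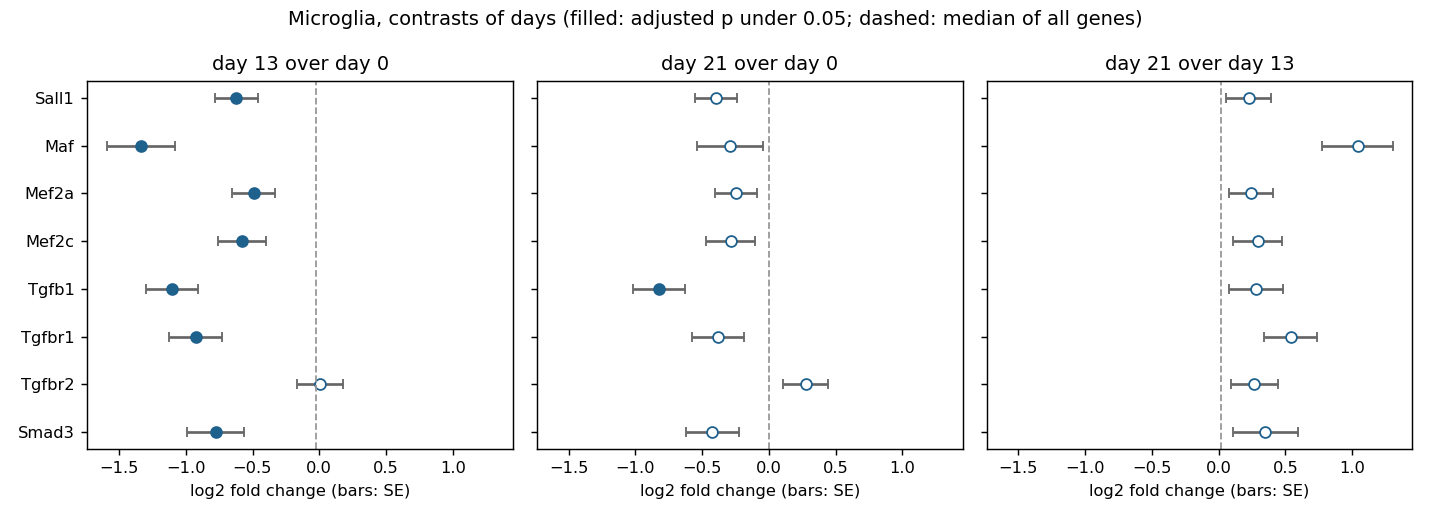
Log2 fold changes in microglia between days with their standard errors, from edgeR on 6 libraries; filled points passed an adjusted p of 0.05 and the dashed line marks the median of all genes. The 7 filled points for day 13 over day 0 lie left of the line, as does the 1 filled point for day 21 over day 0, that of Tgfb1.

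Other measures moved with day in the same microglia. The 17 genes known to respond to tissue dissociation, such as Fos and Jun, summed to 26620, 5304 and 8292 CPM in KO microglia, against 28716, 3419 and 5742 CPM in WT microglia of days 0, 13 and 21, and 15 of them were called lower on both later days, with a median log2 fold change of -2.29 on day 13. The 9 gating markers summed to 37629, 12921 and 24573 CPM in KO microglia, against 36413, 16174 and 16287 CPM in WT microglia. The genes of MHC class II, which present antigen to helper T cells, summed to 789, 25717 and 6515 CPM in KO microglia, against 401, 19029 and 18636 CPM in WT microglia. Monocyte and macrophage markers summed to 686, 1940 and 1815 CPM in KO microglia, against 636, 1699 and 2113 CPM in WT microglia, with 7 or 8 of 8 detected. Neutrophil markers summed to 730, 1953 and 3027 CPM in KO microglia, against 1461, 2157 and 4539 CPM in WT microglia, with 10 of 10 detected. The part of these measures in the changes of the 8 genes was not tested. Of the markers of border-associated macrophages, another brain macrophage that uses Maf, 3 to 5 of 7 were detected. Among these markers Cd163 and Lyve1 had no UMI in the microglia of any library. They summed to 10.04, 16.4 and 48.2 CPM in KO microglia, against 7.87, 8.10 and 4.23 CPM in WT microglia. Their part was not tested either.

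The wider list of microglial transcription factors held 20 genes. Of these, which include 5 of the 8 described here, 19 were tested on day 13 against day 0, and 11 were called lower and 2 higher, with a median of -0.58. These counts, and those of the pathway lists that follow, stand beside 13.1% lower and 16.3% higher among all genes on day 13, and 3.91% lower and 8.94% higher on day 21. Besides the 5, the genes that fell included Cebpa, which fell by 1.52 on the log2 scale, Hhex by 1.11, Etv5 by 0.71, Zfhx3 by 0.67 and Sall3 by 0.62. Runx1 rose by 0.80 and Bhlhe40 by 2.08 on the same scale. The abundant factor genes Irf8 (0.36), Spi1 (0.07) and Bhlhe41 (-0.34) did not pass. Spi1 encodes PU.1, which opens macrophage enhancers, and Irf8 its partner. On day 21, 3 of the 19 were lower than on day 0, Cebpa and Hhex among them.

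In the pathway itself, 7 of 16 genes for ligands and activators were tested on day 13, and 3 fell and 2 rose. Besides Tgfb1, the integrin genes Itgav, at -0.67, and Itgb1, at -0.61, fell, while Thbs1 and Mmp14, whose products can release latent ligand, rose by 1.65 each. Nrros, which encodes the protein that holds latent TGF-beta 1 on microglia, had -0.10 and did not pass. Of 9 receptor genes 8 were tested and 2 fell, Tgfbr1 and the co-receptor gene Eng at -0.83. Of 11 Smads and partners 10 were tested and 3 fell, Smad3, Smad2 at -0.80 and Tab2 at -0.46, with Smad4 at 0.00 and not called. The counts of receptors and of Smads rest on few genes. On day 21, the genes called against day 0 in these 3 lists were Tgfb1, Itgb1, Mmp14, Eng and Smad2, all in the direction of day 13.

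The feedback inhibitors of the pathway, 11 of 12 tested, had 4 genes lower and 1 higher on day 13. Smad7, the inhibitory Smad, fell by 0.65, Skil by 0.51, Pmepa1 by 1.38 and Tgif2 by 1.57, while Tgif1 rose by 0.72. Of 15 genes that TGF-beta is known to induce in various cells, 10 were tested and 5 fell, among them Junb by 2.11 and also Smad7, Skil and Pmepa1, and 4 rose, Tgfbi by 0.72, Id1 by 2.28 and Bhlhe40 besides Tgif1. The median of this list was 0.11, so its members did not move one way. Junb is also on the list of dissociation genes. On day 21 Junb, Pmepa1 and Tgif2 were lower and Tgif1 higher than on day 0.

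Of 20 microglial genes known to depend on TGF-beta in mice, 17 fell and 2, C1qa at 0.57 and C1qb at 0.71, rose on day 13, with a median of -0.78. The 17 include Sall1, Smad3 and Mef2a, and the gating markers P2ry12, Tmem119, Gpr34, Fcrls, Olfml3, Slc2a5 and P2ry13, which also choose the cells. Cx3cr1 (-1.22), Csf1r (-0.66), Mertk (-0.65), Pros1, Siglech and Jun fell as well, and Gas6 (-0.40) did not pass. On day 21, 7 were lower than on day 0, P2ry12, Gpr34, Slc2a5, P2ry13, Cx3cr1, Mertk and Jun, and C1qb was higher. Of 12 published miR-155 targets in these pathways, Maf, Smad2, Mef2a and Csf1r fell and Cebpb (0.96) and Socs1 (2.80) rose on day 13, and Spi1, Inpp5d (-0.12) and Tgfbr2 did not pass. On day 21 Smad2 was lower and Cebpb and Socs1 were higher than on day 0. In the comparison of day 21 with day 13, the dissociation genes Jund and Hspa1a were called higher, and no gene of the other lists was called.

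The promoters of 7 of the 8 genes were in the RefSeq table for GRCm38.p6, with 250 bases before and 50 after each start; Maf was not. They were searched on both strands for GAGGAA, the core bound by PU.1, TGACTCA, bound by AP-1, CAGACA, a Smad box, and TGCTGA, a Maf motif. These are in 28.3%, 5.2%, 21.0% and 19.5% of 32817 promoters, and matches to the AP-1 and Maf motifs can share letters. The promoters of Mef2a and Tgfbr2 are shown because both hold the PU.1 core, with 2 matches and 1 match in capitals, while Mef2a fell on day 13 and Tgfbr2 did not pass the test. No match to the 4 motifs was found in the windows of Tgfb1 and Smad3, or at any of the several starts of Sall1. Mef2c held a match at each of its starts, and Tgfbr1 at 1 of its starts. The Mef2a window is chr7:67372809-67373108 and the Tgfbr2 window chr9:116175314-116175613, both on the minus strand.
Mef2a promoter: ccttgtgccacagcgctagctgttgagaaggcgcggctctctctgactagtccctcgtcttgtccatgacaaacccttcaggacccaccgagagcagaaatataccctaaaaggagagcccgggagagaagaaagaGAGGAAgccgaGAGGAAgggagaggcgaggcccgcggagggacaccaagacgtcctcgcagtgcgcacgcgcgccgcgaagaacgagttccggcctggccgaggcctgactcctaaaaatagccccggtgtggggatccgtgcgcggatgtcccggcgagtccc
Tgfbr2 promoter: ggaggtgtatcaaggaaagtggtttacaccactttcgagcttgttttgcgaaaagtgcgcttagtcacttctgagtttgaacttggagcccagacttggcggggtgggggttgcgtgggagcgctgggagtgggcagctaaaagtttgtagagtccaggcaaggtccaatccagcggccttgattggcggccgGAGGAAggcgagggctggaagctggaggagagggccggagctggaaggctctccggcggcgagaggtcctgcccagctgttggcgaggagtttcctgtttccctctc

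The third comparison asked how KO and WT microglia differed. Over the 3 days together none of the 8 genes was called with edgeR, and within days the direction differed, with 6 of 8 lower in KO on day 13 and 6 of 8 higher in KO on day 21 beyond counting error. Among genes of 10 CPM or more in either library, 5.69% of 7581 were lower in KO on day 13 and 14.6% of 7569 higher on day 21 by the same rule. Intervals narrow with counts, and among genes of 50 CPM or more, which takes in 7 of the 8, these shares were 10.0% and 25%. A value within a day compares 2 libraries and not the genotypes, and has no replicate check. Ratios are of KO over WT CPM with 95% intervals of counting error.

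On day 0 the levels were close. Sall1 had a ratio of 0.985 (0.875 to 1.11) and Maf 1.04 (0.960 to 1.13), and Mef2c and Tgfb1 also had intervals that include 1, as did Smad3. The intervals of Mef2a, Tgfbr1 and Tgfbr2 lay above 1, as did those of 6.5% of 7800 genes, the highest ratio being that of Tgfbr2 at 1.24, with 122 CPM in KO microglia, against 98.6 CPM in WT microglia. None of the 8 was 1.5-fold apart, beside 1.95% of 7800 genes higher and 1.08% lower in KO by that fold. The sum of the gating markers had a ratio of 1.03.

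On day 13, Tgfbr1 had 232 CPM in KO microglia, against 341 CPM in WT microglia, a ratio of 0.680 (0.603 to 0.767), from 368 and 1054 UMIs. Maf had 70.7 CPM in KO microglia, against 102 CPM in WT microglia, a ratio of 0.693 (0.552 to 0.864). Tgfbr2 had 0.801 (0.649 to 0.984), Tgfb1 0.845 (0.736 to 0.969), Mef2a 0.851 (0.736 to 0.981) and Mef2c 0.875 (0.802 to 0.954). Sall1, at 0.944, and Smad3, at 0.872 (0.461 to 1.58), had intervals that include 1. None reached a 1.5-fold difference, beside 5.18% of 7581 genes higher and 4.3% lower in KO. The gating markers had a ratio of 0.799 and the MHC class II genes 1.35 on the same day, and the dissociation genes 1.55. Their part in the ratios of the 8 genes was not tested.

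On day 21, Maf had 236 CPM in KO microglia, against 122 CPM in WT microglia, a ratio of 1.93 (1.65 to 2.28), from 1256 and 173 UMIs. Tgfb1 had 307 CPM in KO microglia, against 192 CPM in WT microglia, a ratio of 1.59 (1.40 to 1.82). These 2 were the genes 1.5-fold or more higher in KO, beside 10.5% of 7569 genes higher and 6.8% lower. Mef2c had 740 CPM in KO microglia, against 508 CPM in WT microglia, a ratio of 1.46 (1.35 to 1.58), and Sall1 94.97 CPM in KO microglia, against 67.7 CPM in WT microglia, a ratio of 1.40 (1.13 to 1.76). Mef2a, at 1.20 (1.06 to 1.37), and Tgfbr1, at 1.18 (1.07 to 1.298), were higher in KO by less. The median of all 7569 genes was itself 0.071 on the log2 scale on day 21, against 0.006 and 0.013 on days 0 and 13. The ratios are not scaled for it. Tgfbr2 had 0.956 (0.802 to 1.15), with 109 CPM in KO microglia, against 114 CPM in WT microglia, and Smad3 had 1.23 (0.731 to 2.17).

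The other sums of day 21 moved as well. The gating markers had a ratio of 1.51, the dissociation genes 1.44, the MHC class II genes 0.350, the neutrophil markers 0.667 and the T cell markers 0.110. Markers of border-associated macrophages, which also use Maf, summed to 48.2 CPM in KO microglia, against 4.23 CPM in WT microglia. Of these markers Cd163 and Lyve1 had no UMI in either, and Pf4 and Cbr2 had none in WT. When every gated cell with a T cell marker UMI was left out, an alternative chosen after seeing the data, the ratios of day 21 were 2.10 for Maf, 1.57 for Tgfb1, 1.46 for Mef2c, 1.36 for Sall1, 1.23 for Mef2a and 1.15 for Tgfbr1. That of Smad3 was then 0.931, on the other side of 1. The part of the other sums was not tested.

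**Figure D4:**
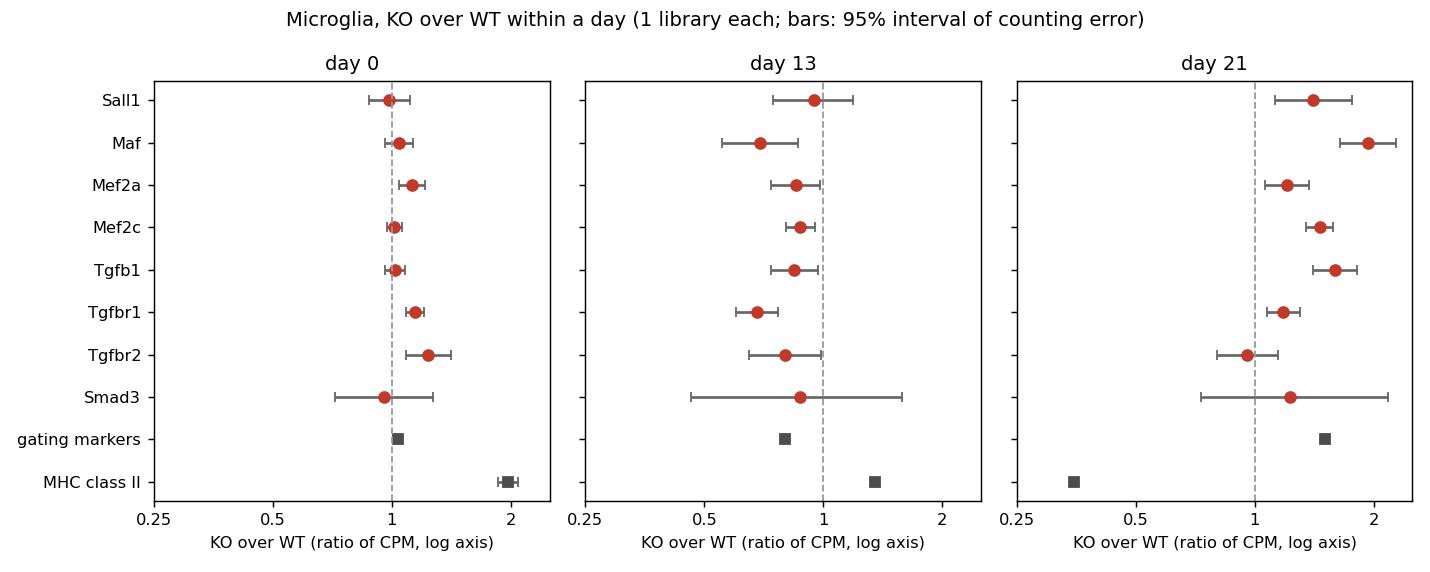
Ratio of KO over WT CPM in microglia (log axis) for the 8 genes (circles) and for the sums of the 9 gating markers and of the MHC class II genes (squares), 1 library on each side, with 95% intervals of counting error. The ratios of Maf lie at 0.693 on day 13 and 1.93 on day 21, and those of the gating markers at 0.799 and 1.51.

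With the days as a block, the log2 fold changes of KO over WT ran from -0.07 ± 0.16 for Tgfbr1 to 0.15 ± 0.21 for Maf (SE), and none of the 8 was called (adjusted p = 0.9999 for each, edgeR, no call with DESeq2). Of all 10491 genes 0.0477% were called in either direction, and 337 had an unadjusted p under 0.05. No gene of the other lists was called in this comparison. The median of the published miR-155 targets was 0.06 and that of the transcription factors 0.02, beside -0.01 for all genes. Among the most abundant genes of these lists, Csf1r had 0.08, Spi1 -0.02 and Irf8 -0.09. In the pathway, Nrros had -0.02, Itgb1 0.12, Eng 0.10, Smad1 0.10, Smad2 0.22, Smad7 -0.06 and Pmepa1 0.04. An effect that changes sign with day widens the residual of this model. The intervals of 5 of the 8 lay below 1 on day 13 and above 1 on day 21, as did those of 2.39% of 7183 genes.

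Outside microglia, Mef2c in monocytes and macrophages had 89.7 CPM in KO and 52.0 CPM in WT cells on day 21, a ratio of 1.72 (1.35 to 2.20), and 32.2 CPM in KO and 39.4 CPM in WT cells on day 13, a ratio of 0.816 (0.627 to 1.06). The ratio of Tgfb1 there was 0.782 on day 13 (0.704 to 0.868), and 1.17 on day 21 (1.04 to 1.32). How many of all genes had intervals on 1 side of 1 was not counted outside microglia. In B cells Mef2c had 670, 417 and 585 CPM in KO and 468, 413 and 431 CPM in WT cells of days 0, 13 and 21. In T cells Maf had 56.8, 50.7 and 69.8 CPM in KO and 36.2, 71.8 and 74.8 CPM in WT cells, and each interval of its ratio includes 1. Over days, none of the 7 genes tested was called with edgeR in T cells, beside 1.03% of 6911 genes in either direction, or in monocytes and macrophages, beside 0.0336% of 8941 genes. DESeq2 called none either, and Sall1 was too low to test in both. The lowest unadjusted p was that of Mef2c in T cells, 0.034 (log2 fold change 0.83 ± 0.37, SE, adjusted p = 0.57, edgeR), the only one under 0.05 of the 14.

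The last comparison asked whether the genes followed the antigen presentation state of the microglia of EAE. Within each of the 4 libraries of days 13 and 21, cells were ranked by the share of UMIs from H2-Aa, H2-Ab1, H2-Eb1 and Cd74, and the upper tercile was set against the lower. The median share in the upper tercile was 3.98% and 1.17% in KO microglia of days 13 and 21 and 3.28% in WT microglia of both days, so the terciles are not alike across libraries. In KO microglia of days 13 and 21, Maf had 63.7 and 190 CPM in the upper against 59.3 and 273 CPM in the lower tercile. In WT microglia it had 88.7 and 113 CPM in the upper against 118 and 131 CPM in the lower tercile. In 3 of the 4 libraries it was thus lower in the upper tercile, and the log2 fold change of -0.28 ± 0.12 did not pass (SE, unadjusted p = 0.032, adjusted p = 0.40, edgeR).

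Sall1 had 61.8 and 95.4 CPM in the upper against 77.8 and 102 CPM in the lower tercile of KO microglia, and 54.2 and 50.4 CPM in the upper against 84.8 and 79.7 CPM in the lower tercile of WT microglia. It was lower in the upper tercile of 4 of 4 libraries, at -0.26 ± 0.13 (SE, adjusted p = 0.53, edgeR), as was Smad3, at -0.57 ± 0.31 (SE, adjusted p = 0.57, edgeR). Smad3 rests on few UMIs here, with only 17 in all KO microglia of day 13. Tgfb1 had -0.17 ± 0.10 (SE), and the other 4 genes lay between -0.08 and 0.09. None of the 8 was called, with edgeR or with DESeq2, beside 1.55% of 7370 genes in either direction, and 771 genes had an unadjusted p under 0.05. Of the microglial genes known to depend on TGF-beta, 5 of 20 were called lower in the upper tercile, P2ry12 (-0.42), Gpr34 (-0.47), Slc2a5 (-0.50), Gas6 (-0.88) and Fcrls (-1.50), of which all but Gas6 are gating markers. Fos, of the dissociation genes, was also lower (-0.38). The terciles are ranges and not cell types, with 92 to 216 cells of a library within 20% of the upper boundary and 42 to 204 within 20% of the lower.

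**Figure D5:**
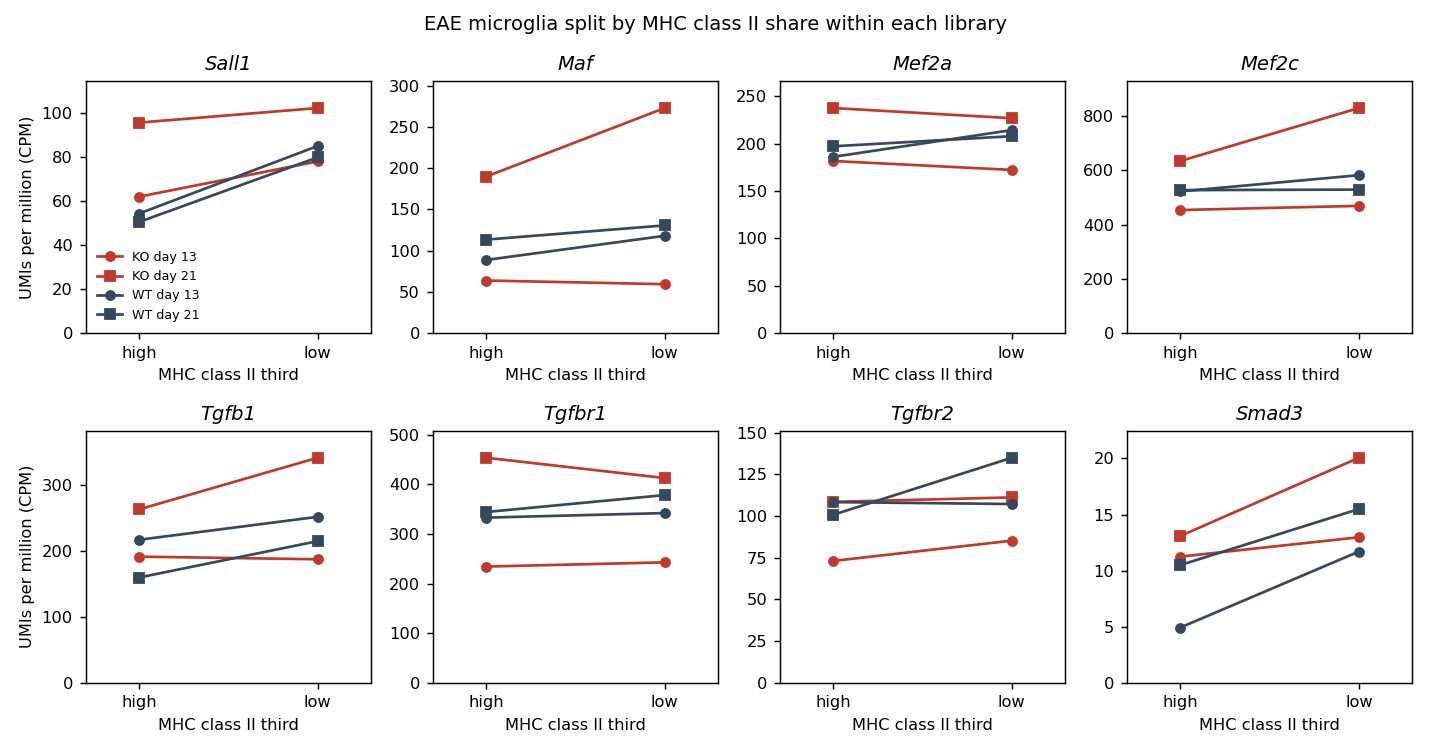
CPM of each gene in the upper (high) and lower (low) tercile of microglia by MHC class II share, for the KO and WT libraries of days 13 and 21, joined within a library. Sall1 is lower in the upper tercile in all 4 libraries, as is Smad3, on few UMIs. KO microglia of day 21 have the highest Maf in both terciles, at 190 and 273 CPM.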

How the data were processed

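The authors deposited raw UMI counts per gene and barcode, whole numbers with no normalization, as 1 matrix per library. Cell Ranger 2.0.2 and build mm10 were used per the submitters' processing notes, while how reads were counted is not given in those sources. Of 20030 barcodes, 20007 had 200 or more genes and a mitochondrial share of 10% or less and were used. Cells were gated by marker genes, with the numbers of markers required set after seeing their distributions. Cells that passed more than 1 gate were left out, no doublet caller was run, and doublets within a class remain. Counts were summed per library and class (scanpy 1.11.5) and tested with edgeR 4.0.16 (TMM, filterByExpr, glmQLFit, glmQLFTest, Benjamini-Hochberg at 0.05). A standard error is the size of the log2 fold change divided by the root of the F statistic. Ratios have exact conditional 95% intervals and counts exact Poisson intervals, which cover counting error only. Counts within days used genes that reached 10 CPM in at least 1 of both libraries.

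DESeq2 1.42.0, no filter, no TMM factor, a stricter gate, cells of several gates kept, Leiden clusters made without the 8 genes, thinned cells, cells with T marker UMIs left out (added after seeing the data) and each library left out were the alternatives. The fits were run on simulated counts that varied independently between libraries and held no differences but those put in. They do not test whether libraries of other days or genotypes can serve as replicates. With 1 library per group, libraries of other days or genotypes serve as replicates, so p-values measure only the spread between these libraries. The 8 genes, the gene lists and the tests were chosen with earlier results of these data known. The text names all 8 genes, each list gene called in a microglial comparison and otherwise the 3 most abundant not called, and the 3 genes most like Sall1, Maf, Mef2c and Tgfbr2. Some genes that this rule would name are not reported here.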

Additional observations from a re-analysis of the deposited data

Results flagged for a closer look

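For 5 of the 8 genes, the KO over WT ratio in microglia lay below 1 on day 13 and above 1 on day 21, with both counting intervals on 1 side of 1. These ratios were 0.693 and 1.93 for Maf, 0.851 and 1.20 for Mef2a, 0.875 and 1.46 for Mef2c, 0.845 and 1.59 for Tgfb1, and 0.680 and 1.18 for Tgfbr1. By the same rule 2.39% of 7183 genes of 10 CPM or more went that way, and 5.87% of 2590 genes of 50 CPM or more. With 1 library per genotype and day, the difference between the days was not tested. For the summed gating markers of microglia the ratio was 0.799 on day 13, and on day 21 it was 1.51; their part in these ratios was not tested. With cells holding a T cell marker UMI left out, the ratios of day 21 lay between 1.15 for Tgfbr1 and 2.10 for Maf in these 5 genes.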

How the results depend on the processing

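No paired analysis by replicate number was possible because every group held 1 library. KO with WT over days was fitted with day as a block, and classes with library as a block.

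On day 13 over day 0, 7 of the 8 genes were called, 3 with DESeq2, 4 with Leiden clusters in place of gates, and 0 to 7 with 1 library left out. Maf, Tgfb1 and Tgfbr1 were called in 7 of 7 other settings, Sall1 in 6, Smad3 in 5, Mef2c in 3 and Mef2a in 2. On day 21 over day 0, 1 gene was called, 4 without TMM factor, where the median of all genes moved to -0.26, 0 with cells of several gates kept, 0 with clusters, and 0 to 5 with 1 library left out. On day 21 over day 13, 0 were called, 1 with DESeq2, 2 with no filter, and 0 to 4 with 1 library left out. On day 13, 0 genes were 1.5-fold or more lower in KO, and 1 with the stricter gate, with thinned cells or with T marker cells left out. Higher in KO by that fold on day 21 were 2 genes, and 4 with clusters. The causes were not tested. Of 1128 log2 fold changes of the 8 genes under alternatives, 62 changed sign, none of which passed the threshold in either fit.

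Over all genes, day 13 over day 0 gave 3086 calls, 1427 with DESeq2 to 3700 without TMM factor, and 640 to 4382 with 1 library left out. Day 21 over day 0 gave 1348 (705 to 2249; 180 to 2231 with 1 left out), day 21 over day 13 gave 62 (0 to 605; 5 to 1247) and KO over WT in microglia gave 5 (0 to 88; 0 to 238). KO over WT gave 71 in T cells (9 to 103) and 3 in monocytes and macrophages (0 to 45), where leaving out a library leaves no residual degrees of freedom. The MHC class II comparison gave 114 (41 to 262).

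Smad3 rests on 17 to 110 UMIs per library in microglia, and ratios of 0.872 and 1.23 within days 13 and 21 could not be told from 1 at this depth.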
